A study of Mus musculus with 2 samples.

Results

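Accessibility at the sequence patterns of 5 homeodomain factors, VSX1, RAX, RAX2, LHX2 and LHX9, was examined in single cells of mouse retina. The 5 motifs were the rows that bear these names, in any case, in a matrix of 579 transcription factor motifs, and each name was found once. The matrix came from 2 replicate libraries of wild-type (WT) whole retina, dissociated at embryonic stage E14.5 and processed with the droplet-based 10x Genomics assay for transposase-accessible chromatin. Both share genotype, tissue and age and neither was treated, so there are no sample groups to compare, and comparisons are made between cells. The labels name no strain and do not state whether separate animals or litters were used. An SD here therefore reflects only how far these 2 libraries differ, which can be technical. The p-values of the main fits leave that difference out, since the library is a block. They rest on the remaining spread of counts summed over groups of cells, and do not measure spread between animals.

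Homeodomain factors bind short AT-rich sequences, and the factors studied here are known for patterns built around the letters TAATTA. The matrices behind the 5 rows were not used here, so their letters were not checked. RAX is a paired-like homeodomain factor that specifies the eye field and keeps retinal progenitors dividing. LHX2 is a LIM homeodomain factor needed for the formation of the eye and for the maintenance of progenitors, and LHX9 is its close relative. VSX1 is a paired-like homeodomain factor expressed in bipolar cells, the interneurons that link photoreceptors to ganglion cells. RAX2 is a human relative of RAX with a role in photoreceptors; its name matched no mouse symbol in the RefSeq gene table, while the other 4 names did. A motif count is the number of transposase cuts in all peaks that hold the pattern, so it reads accessibility of the pattern and not the factor. Motifs with similar letters count many of the same peaks. Since the matrix holds motifs and no genes, the tissue label could not be checked against marker genes.

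Identical rows are given once. The count of RAX2 equalled those of Prrx2 and PRRX1, paired-class factors of mesenchyme, in every barcode of both libraries. The values below for RAX2 are therefore equally those of the PRRX motifs. RAX, LHX2 and LHX9 had no identical row.

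The TAATTA letters are less frequent in promoters with a GC box, the site of SP and KLF factors, and the promoter content of a cell is taken into account below. In RefSeq promoter windows of mouse build GRCm38.p6, taken as 250 bases before each start, TAATTA (the same on both strands) occurred in 186 of 10738 windows that hold the GC box GGGCGG on either strand (1.73%), against 1404 of 22079 windows without it (6.36%). Over all 32817 windows the share was 4.85%. The 2 windows shown are promoters of genes whose factors are studied here, 1 with GC boxes and 1 without. The table holds another Lhx2 window, at chr2:38351058-38351307, with 0 GC boxes, 68.4% GC and no TAATTA. In the sequences capitals mark each GC box, and TAATTA was found in neither. The Lhx2 window shown lies on the plus strand at chr2:38339031-38339280 and holds 4 GC boxes with a GC content of 72.8%, and the Lhx9 window lies on the minus strand at chr1:138842445-138842694 with 0 GC boxes and 53.6% GC.
Lhx2: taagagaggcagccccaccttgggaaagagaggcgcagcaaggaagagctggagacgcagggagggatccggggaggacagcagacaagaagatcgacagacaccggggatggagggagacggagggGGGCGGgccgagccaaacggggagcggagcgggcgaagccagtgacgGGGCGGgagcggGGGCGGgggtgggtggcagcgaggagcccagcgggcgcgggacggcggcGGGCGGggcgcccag
Lhx9: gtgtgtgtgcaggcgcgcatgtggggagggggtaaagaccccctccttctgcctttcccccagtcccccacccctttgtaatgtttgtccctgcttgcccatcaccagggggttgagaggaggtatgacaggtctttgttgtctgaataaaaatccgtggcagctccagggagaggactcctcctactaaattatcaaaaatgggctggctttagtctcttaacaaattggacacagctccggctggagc
These letters describe the 2 windows and say nothing of binding.

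The deposited barcodes fell into deep and shallow ones, and cells were kept at 300000 or more motif counts, only in the library in which their barcode was deeper. This kept 890 of 2422 barcodes in replicate 1 and 1051 of 3033 in replicate 2, with median totals of 3519151 and 3523871 counts. The libraries shared 1828 barcodes. Of the kept cells, 872 of replicate 1 and 925 of replicate 2 had a barcode that also occurred in the other library, where the copy held a median of 1.76% and 0.761% of the counts of the kept one. Whether the libraries share cells or reads cannot be told from these counts, so an SD over 2 libraries, the block and a like value in both libraries may not rest on independent replicates. Results are therefore also given for the 18 and 126 kept cells whose barcode occurred in 1 library.

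The 5 motifs differed widely in how many counts they took. RAX2 took 0.804% of the motif counts of replicate 1 and 0.801% of those of replicate 2 (mean 0.802% ± 0.0027, SD, n = 2), rank 33 of 579 in both libraries. LHX9 took 0.650% and 0.649% and VSX1 took 0.298% and 0.301%. RAX took 0.0948% and 0.0929%, and LHX2 took 0.0530% and 0.0526%. The median motif took 0.0412% and 0.0409%, so all 5 lay above it. The order RAX2, LHX9, VSX1, RAX, LHX2 was the same in both libraries, and each gap was far wider than the difference between libraries. Relatives did not lie together: the RAX2 count was a median of 8.49 and 8.63 times the RAX count of the same cell in the 2 libraries, and the LHX9 count 12.3 and 12.4 times the LHX2 count. The log2 ratio of replicate 1 over replicate 2 ran from −0.012 for VSX1 to 0.029 for RAX, against a median absolute ratio of 0.021 over all motifs. Together the 5 motifs took 1.90% of counts in each library.

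Across cells these shares varied little. With the lowest 5% and the highest 5% of cells set aside, the RAX2 share ran from 0.763% to 0.841% in replicate 1 and from 0.760% to 0.836% in replicate 2. The LHX2 share ran from 0.0473% to 0.0579% and from 0.0466% to 0.0578%, and single cells reached as low as 0.0267% and 0.0270%. At the median cell LHX2 had 1854 and 1813 counts and RAX2 had 28080.5 and 28096 counts, so LHX2 is the least precise of the 5.

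**Figure D1:**
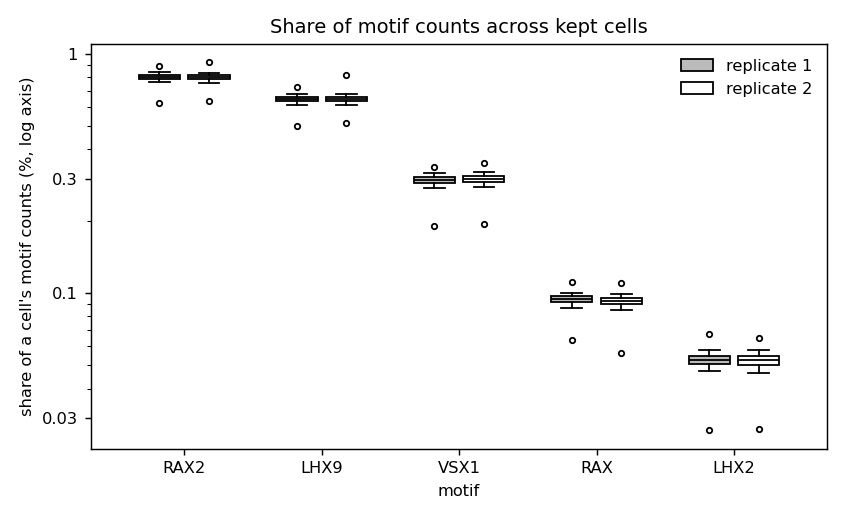
Share of a cell's motif counts (percent, log axis) for the 5 motifs in kept cells of replicate 1 (grey) and replicate 2 (white). Boxes span the interquartile range with the median as a line, and whiskers leave out the lowest 5% and the highest 5% of cells, with points for the lowest and the highest cell. Medians run from 0.805% and 0.801% for RAX2 to 0.0529% and 0.0524% for LHX2.

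Variability was measured as the coefficient of variation (CV) across cells in excess of counting noise. The effect of promoter content was taken out by regressing each motif's log2(counts per 10000 + 1) on the mean of 13 SP and KLF motifs, the GC-box patterns of ubiquitous promoter factors. After this adjustment the excess CV was 2.22% ± 0.054 (SD, n = 2) for RAX2, against 3.08% ± 0.061 before it. For LHX9 it was 2.86% ± 0.067 after and 3.48% ± 0.062 before. For VSX1 it was 3.09% ± 0.085 after and 4.73% ± 0.0013 before, and for RAX 3.29% ± 0.056 after and 4.54% ± 0.11 before. LHX2 varied most, with 4.80% ± 0.092 after and 6.60% ± 0.016 before. The median motif had 5.36% and 5.29% in the 2 libraries after adjustment and 6.19% and 6.27% before. Of the 5 motifs only LHX2 passed the median motif, and only before adjustment. The SP and KLF score accounted for 33.4% to 58.0% of the variance of the 5 motifs, lowest for LHX9 and highest for VSX1 in replicate 1, against 6.75% and 7.09% for the median motif. LHX2, RAX and VSX1 also have fewer counts per cell than RAX2 and LHX9, and the part of that in the order was not tested.

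The motifs did not move across cells by family. They moved in pairs that cut across it, and the pairing stood out more once promoter content was taken out. RAX2 and LHX9 had a Pearson r across cells of 0.97 in both libraries, after and before adjustment. RAX and LHX2 had an r of 0.73 and 0.66 after adjustment, against 0.85 and 0.80 before. RAX2 and RAX had only 0.31 and 0.30 after adjustment, against 0.61 and 0.62 before. LHX9 and LHX2 had 0.22 and 0.14 after, against 0.52 and 0.47 before. VSX1 stood between the pairs, with 0.53 and 0.51 to RAX2 and 0.40 and 0.43 to LHX2 after adjustment. The cells of a library share depth and library, and motifs share peaks, so these values describe the data and carry no p-value. With each cell thinned to 300000 counts the median r of the 10 pairs was 0.188, against 0.385 at full depth, both after adjustment. In the 18 and 126 cells whose barcode occurred in 1 library it was 0.0755 after adjustment and 0.670 before.

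**Figure D2:**
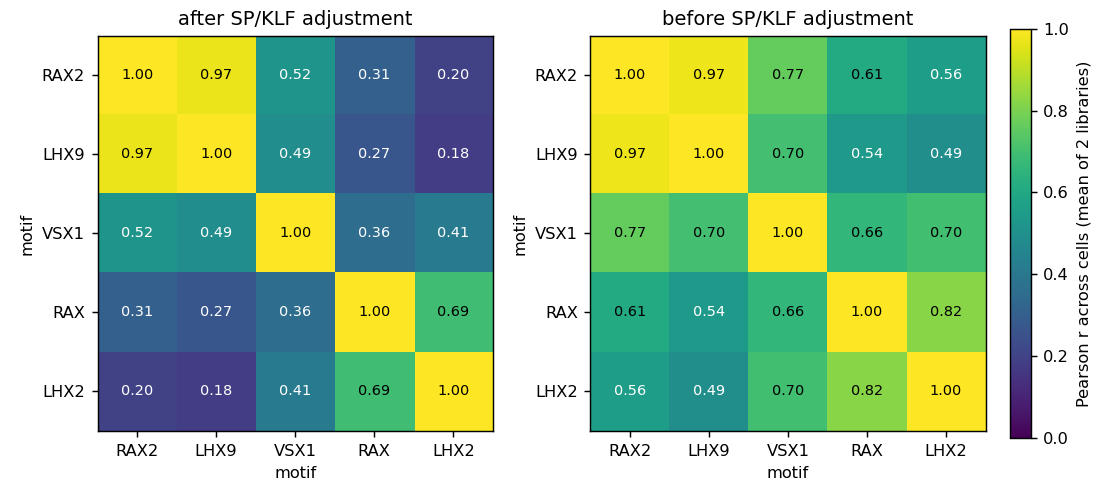
Pearson r across kept cells between the 5 motifs after (left) and before (right) adjustment for the SP and KLF score, each cell of the grid being the mean of 2 libraries. The RAX2 and LHX9 pair stays at 0.97, whereas LHX9 and LHX2, with 0.22 and 0.14 in the single libraries after adjustment and 0.52 and 0.47 before, fade.

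The nearest motifs to each member were in most cases other homeodomain motifs. SHOX and UNCX, paired-class factors of limb and spine, had a mean r of 0.9991 with RAX2 after adjustment, and ISX and Shox2 had 0.9987 with LHX9, so in these data each is close to a copy. For VSX1 the nearest were PAX4 at 0.81 and Lhx8 at 0.79. For LHX2 the nearest was NOTO, a homeodomain factor of the notochord, at 0.82, before RAX at 0.69. RAX was nearest to LHX2, then to HESX1, a paired-like repressor of the anterior brain, at 0.63. To the mean of all 5 motifs, here called the member score, the nearest were SHOX and UNCX (identical to each other, 0.80), Nobox (0.78), ISX and Shox2 (0.78), EN1 (0.78) and the identical MSX1 and MSX2 (0.77). SPIB (−0.73), MZF1 (−0.72) and ZNF354C (−0.71), which all took more counts per cell than any of the 5, lay at the other end.

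Of the motif lists of retinal cell states, TEAD and SOX motifs followed the member score, and POU4F and ONECUT motifs ran against it. After adjustment the member score had an r of 0.30 and 0.31 with TEAD motifs, against 0.47 and 0.49 before, and of 0.27 and 0.29 with SOX motifs, against 0.65 and 0.64 before. With POU4F motifs r was −0.51 and −0.49 after adjustment, against −0.10 and −0.07 before. With ONECUT motifs it was −0.41 and −0.40 after, against −0.11 and −0.12 before. In the cells whose barcode occurred in 1 library the mean of both libraries was −0.149 for POU4F, −0.237 for ONECUT, −0.311 for proneural and −0.318 for CRX and OTX motifs after adjustment, and 0.412 for POU4F and 0.378 for ONECUT before. With proneural motifs the score stood at −0.05 and −0.06 after adjustment, against 0.09 and 0.07 before, so its sign turned. LHX2 alone stood at 0.18 and 0.21 after adjustment, against 0.24 and 0.25 before. LHX9 alone stood at −0.26 in both libraries after adjustment, against −0.11 and −0.13 before. With CRX and OTX motifs the score stood at −0.12 and −0.11 after adjustment, against −0.18 and −0.12 before. By Spearman's rank correlation the mean for POU4F after adjustment was −0.331, against −0.500 by Pearson. With the cell total the member score had 0.193 and 0.135 after adjustment. The score hides differences between single motifs after adjustment. With SOX motifs VSX1 had an r of 0.35 in both libraries, but LHX9 had 0.06 and 0.20. With TEAD motifs LHX9 had 0.34 and 0.29, but LHX2 had 0.04 and 0.11. With POU4F motifs LHX9 had −0.58 and −0.56, but RAX had −0.17 and −0.12. With ONECUT motifs LHX9 had −0.43 and −0.44, but LHX2 had −0.17 and −0.14.

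Of the scores examined, promoter content gave the widest differences in all 5 motifs. Cells of each library were cut into 4 groups of equal size by the SP and KLF score, counts were summed per library and group, and the top was set against the bottom group with edgeR's quasi-likelihood test, the library as a block and Benjamini-Hochberg adjustment over 579 motifs. The RAX2 share was 0.783% and 0.780% in the top group, against 0.822% and 0.819% in the bottom group of replicates 1 and 2. The LHX2 share was 0.0508% and 0.0506% in the top group, against 0.0546% and 0.0544% in the bottom group. For both motifs the top group lay below the bottom group in each library. All 5 motifs fell: LHX2 by a log2 difference of −0.11 ± 0.0057 (SE, adjusted p = 4.21e-14 by edgeR), VSX1 by −0.094, RAX by −0.081, LHX9 by −0.075 and RAX2 by −0.074. As a change of the scaled count these folds are −4.99% for RAX2 and −7.16% for LHX2. Here and below, folds are of counts scaled by edgeR's TMM method, so they need not equal the ratio of the printed shares. Of all motifs 40.9% were called lower in this comparison and 80.1% either way, so a call alone is common here; from the lowest fold upward, LHX2 lay at percentile 2.07 and VSX1 at percentile 3.71 of all motifs. All 5 were also called with no replicate block, where 18.8% of all motifs were called lower, and in the cells whose barcode occurred in 1 library, where 9.67% were.

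For cell states, the cells were then ordered by motif lists outside the 5. Since all 5 differed along promoter content, groups were cut within 5 strata of the SP and KLF score. For all lists except the proneural one this brought top and bottom groups closer in it, but not to the same level. The lists were SOX and TEAD motifs, which mark progenitors, POU class 4 (POU4F) motifs of ganglion cells, ONECUT motifs of horizontal and early neurons, proneural motifs of cells leaving the cycle, and CRX and OTX motifs of photoreceptor precursors. A group is a range of a score and not a cell type: between 5.51% and 10.3% of cells lay within 0.1 SD of the cut of the top group. All comparisons use the same cells, and the scores come from the same matrix, whose motifs share peaks. In bulk sums of this kind, fewer accessible sites per cell and fewer cells with accessible sites cannot be told apart.

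In cells high for SOX motifs, the patterns of SOXB and SOXE factors that maintain progenitors, all 5 homeodomain motifs were higher. VSX1 took 0.302% and 0.305% of counts in the top group, against 0.291% and 0.293% in the bottom group of replicates 1 and 2. LHX2 took 0.0536% and 0.0530% in the top group, against 0.0519% and 0.0513% in the bottom group. For both motifs the share increased over the first 3 groups in both libraries. The TMM-scaled VSX1 count rose by 0.045 ± 0.0027 on the log2 scale (SE, adjusted p = 9.46e-07 by edgeR), which is 3.13%. Without TMM scaling its fold was 0.056, or 3.95%. With the scaling LHX2 rose by 0.036 ± 0.0047, RAX by 0.025, LHX9 by 0.018 and RAX2 by 0.013. All 5 were called, where 35.9% of all motifs were called higher and 74.1% either way. The median fold was 0.025 for the 5 and −0.0026 for all motifs. Without regard to sign, the median absolute fold was 0.025 for the 5, against 0.030 for all motifs. From the lowest fold upward, RAX2 lay at percentile 65.3 and VSX1 at percentile 87.8 of all motifs. In groups not matched for SP and KLF motifs all 5 were called with folds from 0.046 to 0.082, where 39.7% of all motifs were called higher. Cells of the top group had median totals of 4182294 and 3840659 counts, against 3152381 and 3128284 in the bottom group, and the 13 SP and KLF motifs together took 7.70% and 7.66%, against 7.77% and 7.75%. The part of that remaining difference in the folds was not tested. With cells thinned to 300000 counts 5 were called, with VSX1 at 0.033 and LHX2 at 0.041 (21.9% of all motifs called higher). A fit with no replicate block called 4 (9.84% of all motifs called higher). In the 18 and 126 cells whose barcode occurred in 1 library edgeR called 0 (7.43% of all motifs called either way), and 1 passed an unadjusted p of 0.05. DESeq2 on all kept cells called 5 (37.7% of all motifs called higher).

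Along TEAD motifs, the sites of the effectors of Hippo signalling in progenitors, 4 of the 5 were higher. LHX9 took 0.654% and 0.652% in the top group, against 0.637% and 0.635% in the bottom group, and rose by a log2 difference of 0.027 ± 0.0021 (SE, adjusted p = 2.03e-08 by edgeR). VSX1 rose by 0.023, RAX2 by 0.019 and RAX by 0.013 (adjusted p = 0.0131). LHX2 took 0.0528% and 0.0524% in the top group, against 0.0524% and 0.0517% in the bottom group, and its fold of 0.0042 ± 0.0045 did not pass (edgeR adjusted p = 0.403). Here 35.6% of all motifs were called higher and 77.5% either way, and the median absolute fold was 0.019 for the 5, against 0.030 for all motifs. The change lay between the bottom group and the rest: LHX9 took 0.650%, 0.655% and 0.654% in the other groups of replicate 1, from low to top. With groups not matched for SP and KLF motifs all 5 were called, LHX2 with 0.041 (41.3% of all motifs called higher), and with no replicate block 2 (10.4%). Without TMM scaling LHX2 was also called, with 0.015 (edgeR adjusted p = 0.0120). In the cells whose barcode occurred in 1 library edgeR called 0 (0.345% of all motifs called either way), with 1 at an unadjusted p under 0.05, and RAX and LHX2 turned to −0.0096 and −0.0060.

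In cells high for POU4F motifs, the patterns of factors that direct ganglion cell differentiation, the homeodomain motifs were lower. LHX9 took 0.634% in the top group of both libraries, against 0.653% and 0.652% in the bottom group, a log2 difference of −0.035 ± 0.0030 (SE, adjusted p = 1.21e-05 by edgeR). RAX2 fell with a fold of −0.023, VSX1 of −0.020 and LHX2 of −0.014 (adjusted p = 0.0438), while RAX at −0.0065 did not pass (adjusted p = 0.223). Thus 4 of 5 were called lower, where 32.3% of all motifs were called lower and 60.6% either way. The median absolute fold was 0.020 for the 5, against 0.023 for all motifs. The lower groups lay close together: RAX2 took 0.806%, 0.810% and 0.809% in the first 3 groups of replicate 1 and 0.790% in the top group. These calls depended on the matching: in groups not matched for SP and KLF motifs 1 of 5 was called, LHX9 with −0.017 (27.3% of all motifs called lower), and VSX1, RAX and LHX2 turned to 0.0019, 0.014 and 0.013. Without the library as a block 2 were called (5.7% of all motifs called lower). Without TMM scaling RAX was also called, with −0.012 (edgeR adjusted p = 0.0327). With cells thinned to 300000 counts 3 were called (24.4% of all motifs called lower), RAX and LHX2 standing at 0.0066 and 0.011. In the cells whose barcode occurred in 1 library edgeR called 0 (2.59% of all motifs called either way), also at an unadjusted p under 0.05, and RAX2, VSX1 and LHX2 turned to 0.0049, 0.035 and 0.0090.

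Along ONECUT motifs all 5 were lower, again in the top group. LHX9 took 0.636% and 0.635% in the top group, against 0.655% and 0.654% in the bottom group, and fell with a log2 difference of −0.039 ± 0.0021 (SE, adjusted p = 1.21e-12 by edgeR), which is −2.67%. RAX2 took 0.791% and 0.788% in the top group, against 0.810% and 0.805% in the bottom group, with a fold of −0.029. VSX1 had −0.025, LHX2 −0.022 and RAX −0.020. All 5 were called, where 32.8% of all motifs were called lower and 67.2% either way. The median absolute fold was 0.025 for the 5, against 0.026 for all motifs. Without the matching 3 were called (28.8% of all motifs called lower), with no replicate block 2 (9.15%), and with cells thinned to 300000 counts 3 (20.9%). In the cells whose barcode occurred in 1 library edgeR called 0 of the 5 and 0% of all motifs, the 5 also at an unadjusted p under 0.05, and RAX2 and VSX1 turned to 0.0015 and 0.025.

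Proneural motifs, the E-box patterns of NEUROD, NEUROG and ATOH factors, divided the 5. LHX2 took 0.0538% and 0.0533% in the top group, against 0.0523% and 0.0519% in the bottom group, and rose by a log2 difference of 0.045 ± 0.0056 (SE, adjusted p = 3.39e-06 by edgeR), or 3.16%. Its relative LHX9 took 0.647% and 0.645% in the top group, against 0.654% and 0.651% in the bottom group, and fell with −0.0099 ± 0.0029 (adjusted p = 0.00787). VSX1 with 0.011 and RAX with 0.013 were called higher, and RAX2 with −0.0055 did not pass (edgeR adjusted p = 0.0933). LHX2 lay higher and LHX9 lower in both libraries, with folds of 0.044 and 0.039 for LHX2 and of −0.0125 and −0.0136 for LHX9. These folds were scaled within each library alone, so the joint fold can lie outside them. The difference between the motifs itself was not tested. Of all motifs 34.0% were called higher, 20.6% lower and 54.6% either way. Without the matching LHX2 (0.033) stayed called, VSX1 and RAX did not, and RAX2 was called at −0.015 (55.4% of all motifs called either way). With no replicate block 1 motif was called (6.22% of all motifs called higher), at 1000000 or more counts per cell 2 (52.7% of all motifs called either way), and with 3 groups of cells in place of 4 also 2 (56.3%). DESeq2 called 5 (62.9%). In the cells whose barcode occurred in 1 library edgeR called 0 (1.38%), also at an unadjusted p under 0.05.

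Along CRX and OTX motifs the 5 differed least, and so did all motifs. The median absolute fold was 0.0057 for the 5, against 0.011 for all motifs. Only LHX9 was called, with a log2 difference of −0.0057 ± 0.0018 (SE, adjusted p = 0.0106 by edgeR) and shares of 0.647% and 0.646% in the top group, against 0.650% and 0.649% in the bottom group. The other folds ran from −0.0052 for RAX to 0.0099 for LHX2. Of all motifs 17.8% were called lower and 41.5% either way. Without the matching 3 were called, RAX2, LHX9 and RAX, all lower (20.4% of all motifs called lower), and without TMM scaling 2 (21.4%). With no replicate block (2.94% of all motifs called either way), with a pseudocount of 0.1 (37.7%), or in the cells whose barcode occurred in 1 library (0.864%), edgeR called 0 of the 5. At an unadjusted p under 0.05 these gave 1, 3 and 0 motifs, and DESeq2 on all kept cells called 1 (21.2% of all motifs called lower).

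**Figure D3:**
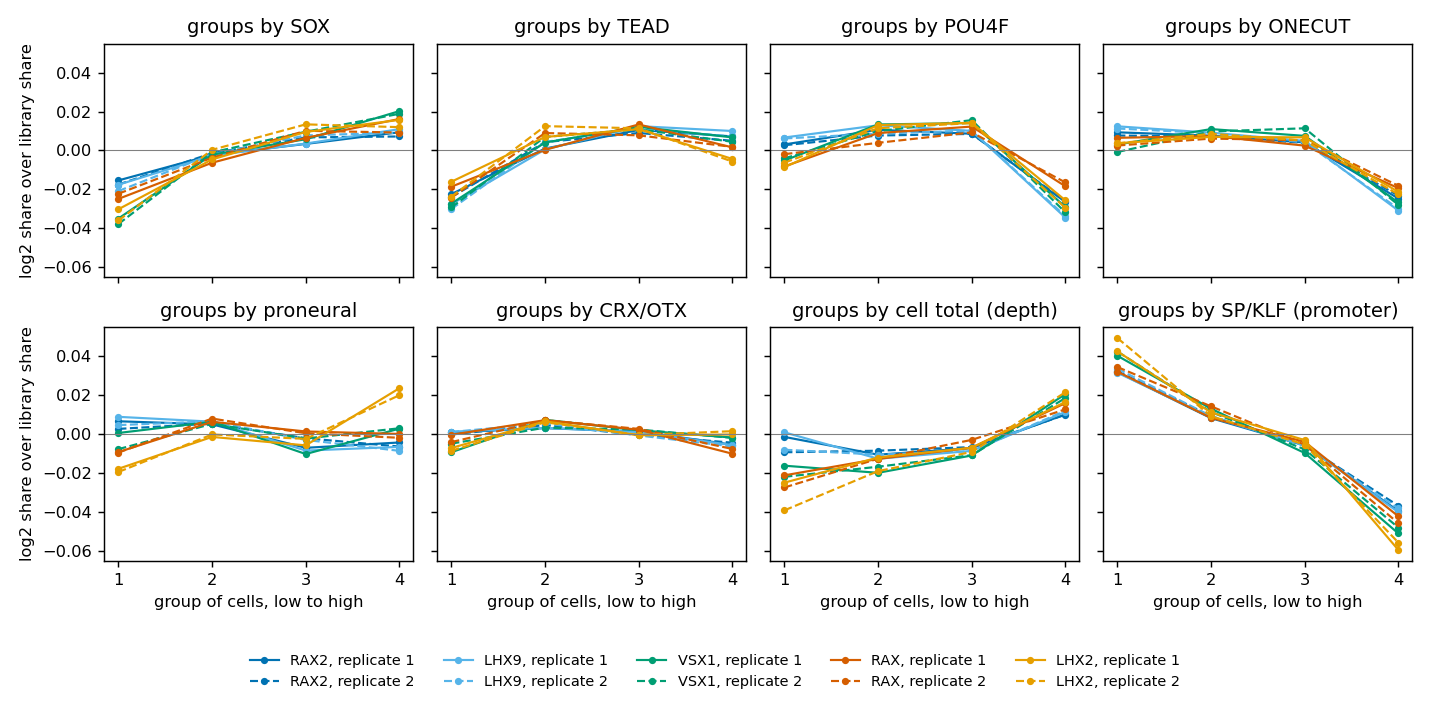
Log2 of each motif's share in a group over its share in the whole library, for groups of cells from low to high by each score (solid, replicate 1; dashed, replicate 2). Groups are matched for SP and KLF motifs except in the SP and KLF panel, where all 5 motifs fall throughout; in the POU4F and ONECUT panels the top group lies lowest for each motif.

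The 5 motifs were also higher in deeper cells. LHX2 took 0.0536% and 0.0533% in the top group by total counts, against 0.0521% and 0.0512% in the bottom group, and rose by a log2 difference of 0.046 ± 0.0047 (SE, adjusted p = 0.000136 by edgeR). VSX1 and RAX rose by 0.033 each, and RAX2 and LHX9 by 0.010 each. All 5 were called, where 32.8% of all motifs were called higher and 65.1% either way, and the LHX2 fold lay at percentile 99.0 of all motifs. The median total was 5680862 and 5917583 counts in the top group, against 1509310 and 925467 in the bottom group. With no replicate block edgeR called 0 of the 5 (3.63% of all motifs called either way), with 3 at an unadjusted p under 0.05, and DESeq2 with the block called 5 (29.7% of all motifs called higher). In the cells whose barcode occurred in 1 library edgeR called 0 of the 5 and 0% of all motifs, the 5 also at an unadjusted p under 0.05, and RAX and LHX2 stood at −0.038 and −0.044. With cells thinned to 300000 counts 4 were called (12.1% of all motifs called higher). The 13 SP and KLF motifs took 7.71% and 7.67% in the top group, against 7.77% and 7.76% in the bottom group, and the part of that in the folds was not tested.

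**Figure D4:**
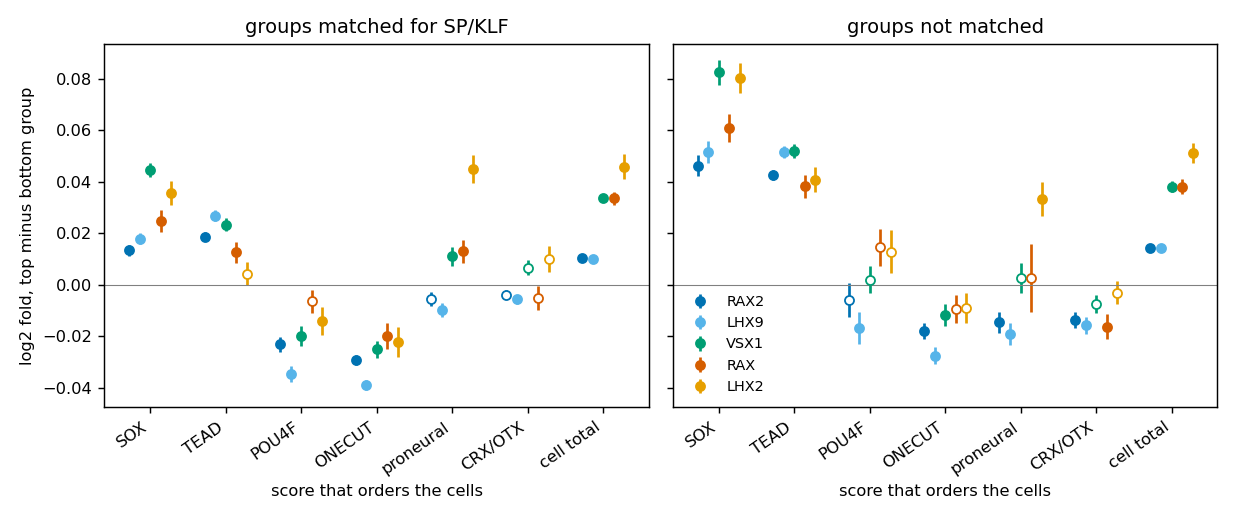
Log2 fold of the top over the bottom group for the 5 motifs along each score, with groups matched (left) and not matched (right) for SP and KLF motifs; bars are the SE and filled points passed an edgeR adjusted p of 0.05. With matching the SOX folds run from 0.013 to 0.045, against 0.046 to 0.082 without it, and all 5 POU4F folds lie below 0, against 2 of 5 without it.

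The cells were last ordered by the member score itself, matched for SP and KLF motifs, and other motifs were compared between its top and bottom groups. The 5 motifs and their identical rows were not counted. Most other motifs of the paired, LIM and ANTP homeodomain classes, many of which recognise similar letters, were higher. All 14 paired-class motifs rose, among them the near-copies SHOX, UNCX, ISX and Shox2, with a median log2 fold of 0.071 and ESX1 at 0.10. Of 30 ANTP-class motifs 28 rose and 2 fell, with NOTO at 0.14 and EN2 at 0.13. Of 7 LIM motifs 6 rose, with LHX6 at 0.11, and 1 fell. For reference, 33.2% of all motifs were called higher, 41.8% lower and 75.0% either way, with a median of −0.0055 over the 571 motifs outside the 5 and their copies.

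All TEAD motifs and some SOX motifs were higher, and all POU4F, ONECUT and CRX and OTX motifs lower, in the same comparison. All 4 TEAD motifs rose, with TEAD2 at 0.077 ± 0.0072 (SE) and TEAD1 at 0.039. Of 7 SOX motifs edgeR called 4 higher and 0 lower (5 and 0 at an unadjusted p under 0.05 and by DESeq2, which called 36.8% of all motifs higher and 38.7% lower), with Sox1 at 0.076 and SOX9 at 0.063. All 3 POU4F motifs fell, POU4F1 with −0.26 ± 0.0075 (SE; edgeR), POU4F3 with −0.21 and POU4F2 with −0.15, and the POU4F1 fold was −0.27 and −0.24 in the 2 libraries. All 3 ONECUT motifs fell, from ONECUT1 at −0.16 to ONECUT3 at −0.044. All 3 CRX and OTX motifs fell, with Crx at −0.074, but OTX2 at only −0.016 and OTX1 at −0.012. In replicates 1 and 2 alone OTX2 had −0.014 and −0.0056, and OTX1 had −0.0087 and −0.0038. Of 5 proneural motifs 1 fell, NEUROD1 with −0.049, and 0 rose, also at an unadjusted p under 0.05 and by DESeq2. Motifs of eye-field factors were divided, with SIX2 higher at 0.061, Pax2 lower at −0.020, and 3 of 5 not called. Of 3 NFI motifs 1 fell, and of 8 E2F motifs, sites of cell cycle genes, 3 rose and 2 fell. With no replicate block (14.0% of all motifs called higher and 15.0% lower) the calls were 2 of 4 for TEAD, 0 of 7 for SOX (1 at an unadjusted p under 0.05), 3 of 3 for POU4F, 1 of 3 for ONECUT, 0 of 3 for CRX and OTX (1 at an unadjusted p under 0.05) and 0 of 5 for proneural (0 at an unadjusted p under 0.05). In that fit 7 of 14 paired-class, 4 of 7 LIM and 20 of 30 ANTP-class motifs were called higher. In the 18 and 126 cells whose barcode occurred in 1 library edgeR called 11 motifs higher and 11 lower (1.9% of all motifs each way). Among them were 3 of 14 paired-class and 3 of 30 ANTP-class motifs, and 0 TEAD, SOX, POU4F, ONECUT, CRX and OTX, proneural or LIM motifs, of which 1 SOX and 3 LIM motifs passed an unadjusted p of 0.05. In groups not matched for SP and KLF motifs all 7 SOX motifs rose (40.8% of all motifs called higher).

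Lists for other cells that a dissected retina can hold were looked at in the same comparison. All 4 pigment epithelium motifs fell (MITF at −0.054), also with no replicate block, whereas in the cells whose barcode occurred in 1 library edgeR called 0, with 4 at an unadjusted p under 0.05. Of 10 endothelial and erythroid motifs 7 fell and 1 rose, of 9 microglia motifs 4 rose and 3 fell, and of 7 mesenchyme and lens motifs 2 rose and 3 fell. Of 13 SP and KLF motifs 8 fell and 1 rose despite the matching, with a median of −0.012, against −0.058 without it. The part of these lists in the values of the 5 motifs was not tested.

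The single motifs with the highest folds were MYBL1 (0.68), a MYB family factor with only 7.33 and 7.70 counts per cell, RORB (0.17), HOXA2 (0.14), SCRT2 (0.14) and NOTO (0.14). The lowest were ZBTB7B (−0.28), POU4F1, POU4F3, CUX1 (−0.20) and ONECUT1. The top group by the member score took in 38.2% and 37.4% of the cells in the top group by SOX motifs, against 14.1% and 12.6% of those in the bottom group by SOX motifs. By cell total these shares were 40.4% and 37.7% of the top group, against 23.2% and 23.8% of the bottom group, and by TEAD motifs 28.9% and 30.2%, against 15.9% and 13.0%. For POU4F motifs they were 17.3% and 18.9% of the top group, against 17.7% and 17.6% of the bottom group.

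**Figure D5:**
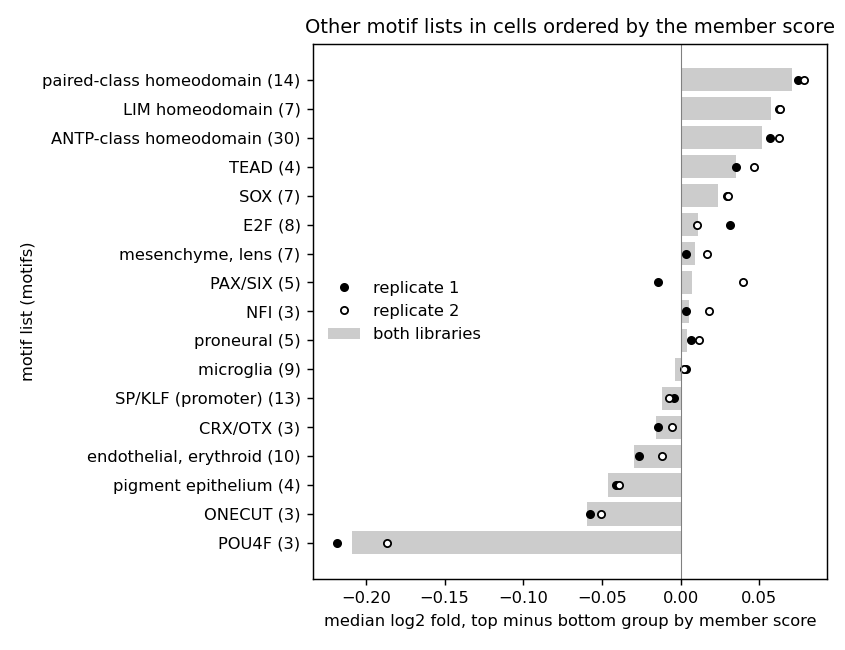
Median log2 fold of each motif list (number of motifs in brackets) between the top and the bottom group of cells by the member score, matched for SP and KLF motifs; bars are the joint fit and points the single libraries. The paired-class list stands highest at 0.071, with the LIM and ANTP classes next at 0.057 and 0.051, and POU4F motifs stand lowest at −0.21.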

How the data were processed

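Motif accessibility was measured by single-cell ATAC-seq in 2 libraries. The authors deposited whole-number counts per motif and barcode, written by software version 1.1.0 per the file headers. Cell Ranger and mm10 appear in the submitters' processing notes. How peaks were called and motifs searched is not given in the sources used here. The 5 motifs and all lists were chosen with earlier results of these data known.

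Cells had at least 300000 counts, and the deeper copy of a shared barcode was used; no doublet caller was run. Scores were means of z-scored log2(counts per 10000 + 1) within a library. Adjustment was a linear regression on the score of 13 SP and KLF motifs; matching used 5 strata of it. Counts summed per library and group of cells (4 groups by score) were tested with edgeR 4.0.16 (R 4.3.3; quasi-likelihood F test, TMM, library as block, 3 residual degrees of freedom, Benjamini-Hochberg over 579 motifs, threshold 0.05). The SE, an approximation, is the log2 fold over the square root of F. Folds of single libraries were scaled by TMM within that library alone, so they are not on the scale of the joint fit.

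Beyond the 5, the motifs named are the 8 nearest to and 3 farthest from the member score by Pearson r after adjustment, the 5 highest and 5 lowest folds that passed with the same sign in both libraries, and up to 4 of the largest folds of each list; nearest motifs of single members were chosen after their values were seen. Alternatives were DESeq2 1.42.0, no TMM, no replicate block, a minimum mean of 50 counts per cell, 3 groups of cells, a pseudocount of 0.1, a minimum of 1000000 counts, leaving out the deepest 5% of cells, leaving out shared barcodes, thinning to 300000 counts, and each library alone. No interval for counting error is given, since 1 cut can add to many motifs. Some named motifs are not reported here.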

Additional observations from a re-analysis of the deposited data

Results flagged for a closer look

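Barcodes left out of the measurements above also held counts of the 5 motifs, a signal in data that the comparisons did not use. The 5 together took 1.91% of the counts in 1532 left-out barcodes of replicate 1 and 1.90% in 1982 of replicate 2, with median totals of 28507.5 and 37400 counts. In the kept cells they took 1.90% in each library.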

How the results depend on the processing

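The 5 SP and KLF calls held under every alternative run. In the 18 and 126 cells whose barcode occurred in 1 library, 0 of the 5 motifs were called by the TEAD, SOX, POU4F, proneural, CRX and OTX, ONECUT and depth groups, as among the 61 and 949 cells whose other copy held under 1% of counts, a setting added after seeing the data; both leave few cells of replicate 1. At an unadjusted p under 0.05 edgeR gave 1 for TEAD, 1 for SOX and 0 for the others in the first setting, and 3 for TEAD, 1 for SOX, 2 for POU4F, 2 for ONECUT, 3 for depth and 0 for proneural, CRX and OTX in the second. In the first, RAX2, VSX1 and LHX2 turned to 0.0049, 0.035 and 0.0090 for POU4F, RAX and LHX2 to −0.0096 and −0.0060 for TEAD and −0.038 and −0.044 for depth, and RAX2 and VSX1 to 0.0015 and 0.025 for ONECUT. In the second, RAX and LHX2 turned to −4.8e-05 and −0.013 for TEAD, RAX to 0.011 for POU4F, VSX1 and RAX to −0.0032 and −0.0029 for proneural, and VSX1 to −0.0058 for CRX and OTX. Along the member score these gave 11 higher and 11 lower, and 60 and 52, calls, against 192 and 242.

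With no replicate block the calls were 81 and 87 along the member score, and of the 5 motifs 2 for TEAD, 2 for POU4F, 1 for proneural, 2 for ONECUT, 0 for CRX and OTX and 0 for depth. Groups not matched for SP and KLF gave 1 for POU4F, 3 for ONECUT and 3 for CRX and OTX, with POU4F folds of 0.0019 (VSX1), 0.014 (RAX) and 0.013 (LHX2) and CRX and OTX folds of −0.0076 (VSX1) and −0.0031 (LHX2). Thinning gave 3 for ONECUT, with 0.0066 (RAX) and 0.011 (LHX2) for POU4F and 0.0012 (RAX) for CRX and OTX. Proneural calls were 2 at 1000000 counts and 2 with 3 groups of cells, where RAX turned to 0.00032 for POU4F. CRX and OTX calls were 2 without TMM and 0 with a pseudocount of 0.1. The cause was not tested.

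Shares without shared barcodes were 0.813% (RAX2), 0.658% (LHX9), 0.307% (VSX1) and 0.0537% (LHX2), and as means of single cells 0.648% (LHX9) and 0.0524% (LHX2). The median excess CV of the 5 was 2.93% after adjustment and 4.05% before at 1000000 counts, 3.98% and 7.05% without shared barcodes and 3.19% and 4.67% with thinning. The median r of pairs was 0.481 after and 0.708 before at 1000000 counts, 0.0755 and 0.670 without shared barcodes, 0.188 and 0.383 with thinning, 0.369 adjusted also for depth, and 0.597 by Spearman before adjustment. Without shared barcodes the r of the member score before adjustment turned to 0.412 with POU4F and 0.378 with ONECUT, and by Spearman to −0.068 with proneural motifs. LHX2, with 1854 and 1813 counts in the median cell, is limited most by depth.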
